A study of Mus musculus with 4 samples.

Results

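The 41 genes described here encode factors that build ribosomes in the nucleolus and carry the pre-ribosomal subunits to the cytoplasm. They were chosen by symbol from a list of ribosome biogenesis factors, and all 41 were matched among the 46517 genes of the deposited expression table. Messenger RNA had been sequenced from LSK cells, the marrow fraction that lacks lineage antigens, carries Sca-1 and c-Kit and contains stem cells and early progenitors, of C57BL/6 mice aged 8 to 10 weeks. The genotypes were Setd2f/f (floxed Setd2, described as wild type, 2 libraries) and Setd2D/D (Setd2 knockout, 2 libraries). Setd2 encodes the enzyme that trimethylates lysine 36 of histone H3 in transcribed genes, and the design asks what its loss does to these cells. The Cre driver, the deleted exons, the number of mice behind a library and whether replicates came from separate mice are not stated in the labels, so that p-values reflect the scatter of these 4 libraries alone, and that scatter may be technical.

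Ribosome assembly starts when RNA polymerase I transcribes a long precursor of ribosomal RNA in the nucleolus. Small nucleolar ribonucleoproteins of the box C/D kind methylate riboses and those of the box H/ACA kind convert uridines to pseudouridine in the precursor, while the small subunit processome and the 60S assembly factors fold and cut it. In blood stem cells the pathway is known for its tie to protein synthesis, which is kept low in quiescent cells and climbs in dividing progenitors, and MYC is a well known activator of its genes.

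Levels are in TPM (a gene's share of the transcripts in a library after division by gene length, scaled to the same total in each), with means given ± SD over 2 libraries, and Setd2f/f libraries are called controls and Setd2D/D libraries knockouts where values are listed. A TPM of at least 1 was reached by 14360 to 14610 genes per library. The number of genes above 0 was lowest in Setd2D/D replicate 1, at 17185 against 19448 to 20192 in the other libraries. The targeted gene, Setd2, measured 78.9 and 68.0 TPM in the controls against 43.4 and 49.5 TPM in the knockouts. Of the sort markers, Kit (c-Kit) measured 224 and 249 TPM in the controls against 301 and 285 TPM in the knockouts, while Ly6a (Sca-1) measured 128 and 124 TPM in the controls against 46.5 and 80.6 TPM in the knockouts. Of 8 erythroid markers, 7 were higher in both Setd2D/D libraries than in both Setd2f/f libraries, where 16.8% of the 14755 tested genes were. The 8 summed to 109 to 145 TPM in Setd2f/f and 455 to 513 TPM in Setd2D/D. The 10 granulocyte-monocyte markers summed to 2576 to 3182 TPM and 3176 to 4863 TPM. Of these, 4 were higher in both Setd2D/D libraries, among them Mpo (ratio of means 1.88) and Elane (2.11). The 2 lower in both were Ngp (0.516) and Ltf (0.423), where 27.6% of tested genes were lower in both. The 8 B lineage markers summed to 282 to 513 TPM and 179 to 249 TPM. The 5 T and NK markers summed to 120 to 130 TPM and 82.4 to 122 TPM, and the 5 stromal and endothelial markers to 97.8 to 125 TPM and 83.6 to 90.5 TPM, with Cd3e, Cd3d, Cdh5, Col1a1 and Cxcl12 under 1 TPM in every library. No marker of any of these lists was at 0 in all 4 libraries. The part of these other cell types in the values below was not tested.

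The 41 genes were well expressed, and 38 of them lay above the median level of the 14755 tested genes. Their median was 75.2 TPM, against 19.3 TPM for all tested genes. Single values ran from 13.7 TPM for Bysl to 2511 TPM for Npm1. The summed level of the 41 genes came to 5799 and 6758 TPM in the controls against 7096 and 7100 TPM in the knockouts. Setd2f/f replicate 1 was the lowest of the 4, and the groups did not overlap. The ratio of the means was 1.13, and an exact permutation test over libraries gave a 2-sided p of 0.333, the smallest that 2 libraries against 2 allow. Npm1 carried most of this difference. Without it the sums came to 3977 and 4743 TPM in the controls against 4585 and 4735 TPM in the knockouts, so that the groups overlapped. In bulk RNA, fewer cells that express a gene and less of its RNA per cell cannot be told apart.

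Gene by gene, 0 of the 41 passed an adjusted p of 0.05 in limma (a moderated linear model on log2(TPM + 1), adjusted over all tested genes), against 0.0678% of all tested genes. At an unadjusted p under 0.05, 2 of the 41 (Npm1 and Nop2) were higher in Setd2D/D, where 4.17% of tested genes were, and 0 were lower, where 6.99% were. The 2 are 4.88% of the 41. This share moved with the scaling of the libraries, to 5 of the 41 (12.2%, against 5.22% of tested genes) with median ratios and 6 (14.6%, against 5.24%) with quantile normalization. The median log2 change of the 41 was 0.07, with 25 genes above 0 and 16 below. Over all tested genes the median was -0.06 and 42.1% were above 0. After rescaling of the libraries 29 to 31 of the 41 were above 0, and the median of all tested genes was -0.014 to -0.003. With a library left out, the number of the 41 above 0 ran from 17 (without Setd2f/f replicate 1) to 35 (without Setd2f/f replicate 2). The median of all tested genes was -0.05 in the first of these fits and -0.09 in the second. Setd2D/D was above Setd2f/f in every pairing of libraries for 12 genes, or 29.3% of the 41 against 16.8% of tested genes, and below in every pairing for 3 genes, or 7.32% against 27.6%. The other 26 genes overlapped. The standard errors of the 41 log2 changes ran from 0.10 to 0.30, of the same size as most of the changes. In the authors' deposited table, whose values carry no error here, 3 of the 41 passed an FDR of 0.05 and all 3 were higher in Setd2D/D (Npm1, Nop2 and Wdr12), against 1.51% of the genes of that table that passed in this direction (2.24% of those tested here). None of the 41 passed in the other direction, where the background was 1.64%. At an unadjusted p under 0.05 the authors' deposited table has 9 of the 41 (22.0%) higher, against 5.34% of its genes, and 1 (Fbl) lower, against 5.87%. The authors' deposited table has a log2 change above 0 for 29 of the 41, against 46.9%.

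**Figure D1:**
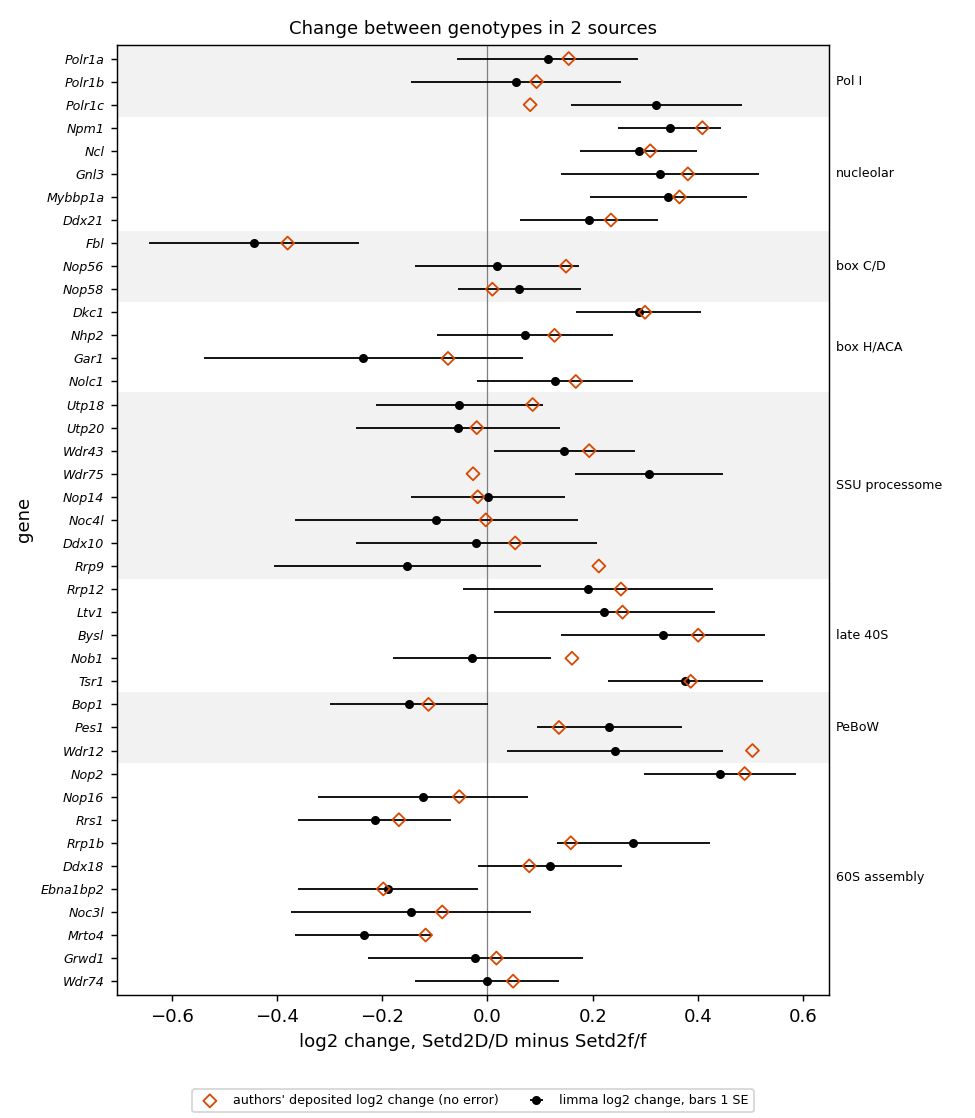
Log2 change of each of the 41 genes, Setd2D/D minus Setd2f/f, ordered by role. Black points are limma estimates on log2(TPM + 1) with bars of 1 SE (2 libraries a genotype), and open diamonds are the values of the authors' deposited table, which have no error. All 5 nucleolar genes lie above 0 in both sources, Fbl lies lowest, and Wdr75 and Rrp9 differ most between the sources.

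Of the 8 role groups, the nucleolar genes had the highest median log2 change, at 0.33. All 5 were above 0, against 42.1% of tested genes. For 4 of the 5, Setd2D/D was above Setd2f/f in every pairing of libraries, against 16.8% of tested genes. Npm1 (ENSMUSG00000057113, GRCm38 chromosome 11, 33152287 to 33163206) encodes nucleophosmin, the abundant nucleolar chaperone that also helps to export ribosomal subunits. It measured 1822 and 2015 TPM in the controls against 2511 and 2365 TPM in the knockouts. Both knockout libraries were above both controls, and the ratio of means was 1.27. By limma its log2 change was 0.35 (SE 0.10, adjusted p = 0.390), and the authors' deposited table gives 0.41 with an FDR of 0.0280. Ncl, or nucleolin, which binds the precursor RNA, measured 596 and 698 TPM in the controls against 772 and 804 TPM in the knockouts. Its groups did not overlap either (log2 change 0.29, SE 0.11, limma adjusted p = 0.449). Mybbp1a, a nucleolar protein that binds MYB and acts in ribosomal RNA synthesis, measured 142 and 183 TPM in the controls against 201 and 209 TPM in the knockouts. Ddx21, an RNA helicase that links Pol I transcription with rRNA processing, measured 96.5 and 115 TPM in the controls against 118 and 124 TPM in the knockouts. Gnl3, which encodes nucleostemin, a nucleolar GTPase of stem and progenitor cells, measured 106 and 130 TPM in the controls against 170 and 128 TPM in the knockouts, so that its groups overlapped.

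The 3 genes of RNA polymerase I itself among the 41 had a lower median log2 change, at 0.11. Among further Pol I subunits outside the 41, Polr1e was at 0.55 and Znrd1 at -0.49 by limma. Polr1d, Twistnb and Cd3eap lay between -0.08 and -0.04. Polr1a, the largest subunit, measured 28.4 and 35.4 TPM in the controls against 34.1 and 34.8 TPM in the knockouts. Polr1b, the second largest, measured 40.9 and 56.8 TPM in the controls against 52.8 and 47.5 TPM in the knockouts, so that both control values lay outside both knockout values. Polr1c, which Pol I shares with Pol III, measured 87.5 and 77.1 TPM in the controls against 116 and 91.3 TPM in the knockouts, and here the groups did not overlap. Its limma log2 change was 0.32 (SE 0.16, adjusted p = 0.523), but the authors' deposited table has only 0.08.

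No gene of the modification enzymes passed the test, and neither kind of particle kept to 1 direction. Fbl, or fibrillarin, the methyltransferase of the box C/D particle, had the most negative change of the 41. Fbl (ENSMUSG00000046865, chromosome 7, 28169710 to 28179269) measured 266 and 314 TPM in the controls against 178 and 253 TPM in the knockouts. Both knockout libraries were below both controls, Setd2D/D replicate 1 the furthest, and the ratio of means was 0.743. By limma its log2 change was -0.44 (SE 0.20, adjusted p = 0.486), and the authors' deposited table gives -0.38 with an FDR of 0.104. Without Setd2D/D replicate 1 the log2 change was -0.19, so that this library decides its size. The scaffold proteins of the same particle did not go with Fbl. Nop56 measured 386 and 477 TPM in the controls against 478 and 395 TPM in the knockouts, a log2 change of 0.02. Nop58 measured 404 and 401 TPM in the controls against 384 and 458 TPM in the knockouts, a log2 change of 0.06. Per length, Fbl was thus the least abundant of these 3 genes in every library. Its means were 290 ± 33.8 TPM over the controls and 216 ± 52.7 TPM over the knockouts. Snu13, a further box C/D gene outside the 41, was lower than Fbl in every library. It measured 148 and 177 TPM in the controls against 153 and 138 TPM in the knockouts.

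Of the box H/ACA genes, Dkc1, or dyskerin, the pseudouridine synthase, was higher in both knockout libraries. It measured 188 and 223 TPM in the controls against 251 and 249 TPM in the knockouts (log2 change 0.29, SE 0.12, limma adjusted p = 0.466). Its partner Gar1 varied more within each genotype than between them, and measured 110 and 159 TPM in the controls against 87.4 and 144 TPM in the knockouts. Nhp2, another core protein, was at 111 and 128 TPM and at 111 and 142 TPM. Nolc1, the chaperone that carries these particles, measured 69.2 and 85.5 TPM in the controls against 86.8 and 81.6 TPM in the knockouts.

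The 8 genes of the small subunit processome, the large complex on the 5′ part of the precursor, did not lean either way. Their median log2 change was -0.04, with 3 above 0 and 5 below, where 42.1% of tested genes were above 0. For 1 of the 8, Setd2D/D was above Setd2f/f in every pairing, against 16.8% of tested genes. That gene, Wdr75, measured 48.4 and 56.5 TPM in the controls against 67.4 and 62.7 TPM in the knockouts, a log2 change of 0.31 by limma (SE 0.14, adjusted p = 0.487) but -0.03 in the authors' deposited table. Wdr43 measured 66.5 and 75.4 TPM in the controls against 82.8 and 74.4 TPM in the knockouts. Rrp9, a protein of the U3 particle, measured 50.3 and 80.4 TPM in the controls against 61.5 and 53.0 TPM in the knockouts, a log2 change of -0.15 by limma against 0.21 in the authors' deposited table. Utp18, Utp20, Nop14, Noc4l and Ddx10 had log2 changes between -0.10 and 0.00, within their standard errors.

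Among the 5 factors of late 40S maturation, 4 had a log2 change above 0, against 42.1% of tested genes, and the median was 0.22. Tsr1, a GTPase-like factor that leaves the 40S particle in the cytoplasm, measured 47.1 and 57.3 TPM in the controls against 67.2 and 68.2 TPM in the knockouts. Its groups did not overlap (log2 change 0.38, SE 0.15, limma adjusted p = 0.453). Bysl, needed for 18S rRNA processing, was lower in level, at 13.7 and 15.4 TPM and at 17.7 and 19.5 TPM. Both genes share exon sequence with a gene on the opposite strand, 32.3% of the merged exons of Tsr1 with Srr (8.42 to 16.5 TPM) and 9.37% of those of Bysl with Ccnd3 (154 to 245 TPM), and whether the libraries kept strand is not stated. Nob1, the endonuclease that makes the 3′ end of 18S rRNA, measured 67.5 and 78.5 TPM in the controls against 65.7 and 77.4 TPM in the knockouts. Ltv1 (43.0 to 65.0 TPM) and Rrp12 (14.1 to 20.8 TPM), both tied to export of the 40S particle, overlapped between genotypes.

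The large subunit genes had values on both sides, and none passed an adjusted p of 0.05 in limma. Of the 8 role groups, the 10 genes of 60S assembly had the lowest median log2 change, at -0.07. Of the 10, 3 were above 0 and 7 below, where 42.1% of tested genes were above 0. Setd2D/D was above Setd2f/f in every pairing of libraries for 2 of the 10 (16.8% of tested genes) and below for 2 (27.6%). Nop2, an RNA methyltransferase of 28S rRNA, had the largest positive change of the 41. Nop2 (ENSMUSG00000038279, chromosome 6, 125131909 to 125144753) measured 59.2 and 72.9 TPM in the controls against 89.9 and 89.3 TPM in the knockouts. The knockout libraries nearly coincided above both controls, with a ratio of means of 1.36. By limma its log2 change was 0.44 (SE 0.15, adjusted p = 0.418), and the authors' deposited table gives 0.49 with an FDR of 0.0126. In the PeBoW complex, which processes the precursor of 28S rRNA, Pes1 measured 95.3 and 105 TPM in the controls against 129 and 108 TPM in the knockouts. Its partner Wdr12 measured 62.7 and 87.7 TPM in the controls against 96.4 and 80.2 TPM in the knockouts, and its groups overlapped. Wdr12 passed in the authors' deposited table (log2 change 0.50, FDR 0.00895) but had 0.24 with an SE of 0.21 by limma (adjusted p = 0.690), and without Setd2f/f replicate 1 the limma log2 change was 0.00. Bop1, the third partner, measured 50.0 and 60.6 TPM in the controls against 48.5 and 50.6 TPM in the knockouts. On the lower side, Mrto4, which takes the place of a stalk protein on the pre-60S particle, measured 95.7 and 111 TPM in the controls against 91.2 and 83.5 TPM in the knockouts. Rrs1, a factor of 5S particle loading, was at 43.8 and 46.6 TPM and at 36.4 and 41.5 TPM. For Mrto4 and Rrs1, both knockout libraries were below both controls. Ebna1bp2 measured 108 and 146 TPM in the controls against 108 and 112 TPM in the knockouts. Of the other 6 genes of 60S assembly, Rrp1b had groups that did not overlap (67.9 and 82.5 TPM against 87.0 and 94.9 TPM), and Nop16, Ddx18, Noc3l, Grwd1 and Wdr74 overlapped.

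At the median, the gap between the control libraries was larger in the 41 genes than the change between the genotypes. The gap is between single libraries and the change is between means of 2 libraries, which scatter less. The order of the 2 sizes therefore does not show which difference is greater. In 38 of the 41, Setd2f/f replicate 2 was above Setd2f/f replicate 1, while 43.8% of all tested genes were. The exceptions were Polr1c, Nop58 and Utp18. The median gap between these control libraries was 0.26 on the log2(TPM + 1) scale, also when signs are dropped, against a median absolute change of 0.19 between the genotypes and 0.15 between the Setd2D/D libraries. Over all tested genes the same gap had a median of -0.04, or 0.20 with signs dropped. The median absolute values there were 0.24 between the genotypes and 0.29 between the Setd2D/D libraries. With signs dropped, the control gap of the 41 genes was thus above that of all tested genes (0.26 against 0.20), and it had a common direction. It was 0.15 for 122 further ribosome biogenesis genes and 0.08 for 78 ribosomal protein genes, both described below. Most of the 41 lay above the median level of tested genes, and these comparisons were not matched for level. The lowest of the 4 libraries was Setd2f/f replicate 1 for 26 of the 41 genes, or 63.4%, against 18.4% of tested genes. Setd2D/D replicate 1 was lowest for 12, or 29.3%, against 34.1%. Between the Setd2D/D libraries, replicate 2 was above replicate 1 for 25 of the 41, and the median gap was 0.06. Left without Setd2f/f replicate 1, the 41 genes had a median log2 change of -0.03, with 17 above 0 (all tested genes -0.05). Left without Setd2f/f replicate 2, the median was 0.23, with 35 above 0 (all tested genes -0.09). For Npm1 the log2 change came to 0.27 when the first control library was left out and to 0.42 when the second was, and for Nop2 to 0.29 and 0.59. The control libraries also differed in other cells' markers, the B lineage sum being 513 TPM in replicate 1 and 282 TPM in replicate 2 and the granulocyte-monocyte sum 2576 and 3182 TPM. The sum of 7 proliferation markers was 1735 and 1709 TPM, against 1699 and 1679 TPM in the Setd2D/D libraries. Within this list Cdk1 (ratio of means 1.27) and Ccnb1 (1.28) were higher in both knockout libraries and Pcna (0.824) was lower in both, while the other 4 overlapped. Over all tested genes 16.8% were higher and 27.6% lower in both. The part of these markers in the gap was not tested.

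**Figure D2:**
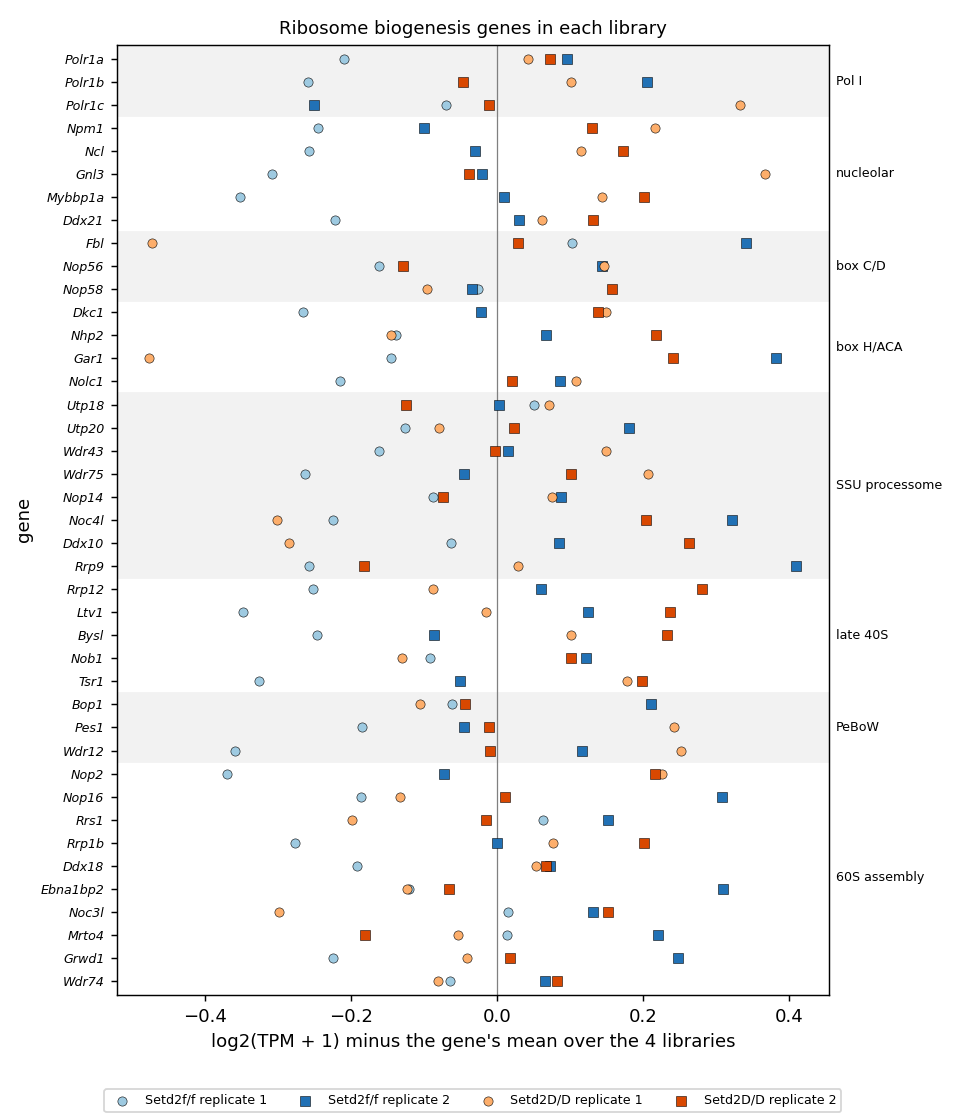
Level of each of the 41 genes in each library, as log2(TPM + 1) minus the gene's mean over the 4 libraries, ordered by role. Circles are replicate 1, squares are replicate 2, blue is Setd2f/f and orange is Setd2D/D. Setd2f/f replicate 1 (light blue) is the leftmost point for 26 of the 41 genes.

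**Figure D3:**
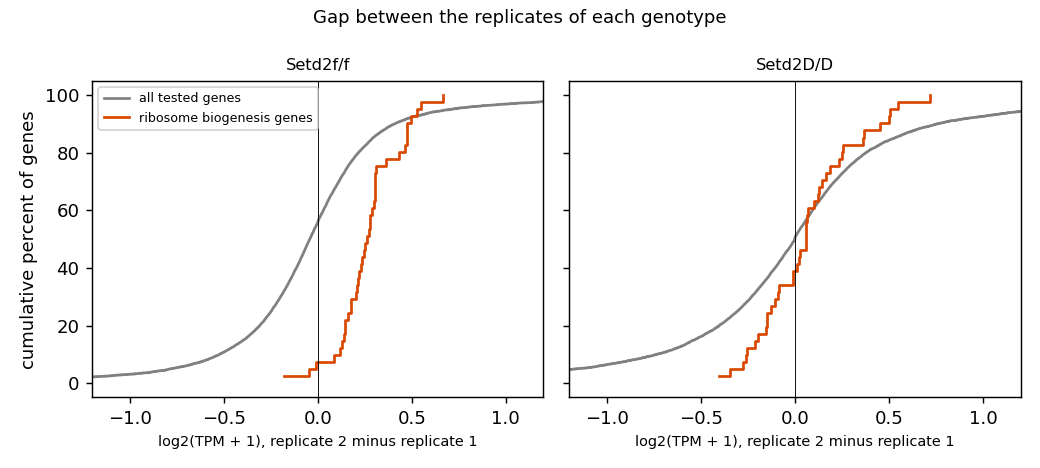
Cumulative percent of genes by the gap between replicates, replicate 2 minus replicate 1 in log2(TPM + 1), in Setd2f/f (left) and Setd2D/D (right), with the axis limited to 1.2 on either side. Between the Setd2f/f libraries the 41 genes (orange) sit right of all 14755 tested genes (grey), with medians of 0.26 and -0.04. Between the Setd2D/D libraries the medians are 0.06 and 0.00.

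The rest of the pathway leaned the same way between the controls, by less. Of 124 further ribosome biogenesis genes, 123 were matched and 122 tested. They had a median log2 change of -0.01 between genotypes, with 60 above 0 and 62 below, and 0 passed limma over all genes. After rescaling of the libraries their median became 0.05 to 0.06. That of all tested genes moved as well, from -0.06 to between -0.014 and -0.003. At an unadjusted p under 0.05, 3 were higher (2.46% against 4.17% of tested genes) and 3 were lower (2.46% against 6.99%). Setd2D/D was above Setd2f/f in every pairing of libraries for 31 of the 122 (25.4% against 16.8% of tested genes) and below for 19 (15.6% against 27.6%). Setd2f/f replicate 2 was above replicate 1 for 83 of the 122 (68.0%), with a median gap of 0.12. Ppan, a 60S assembly factor, measured 99.6 and 107 TPM in the controls against 162 and 141 TPM in the knockouts (log2 change 0.54, SE 0.12, limma adjusted p = 0.329). The authors' deposited table gives Ppan 0.47 with an FDR of 0.0186. Polr1e, a further Pol I subunit, measured 40.9 and 42.0 TPM in the controls against 69.8 and 53.9 TPM in the knockouts. On the lower side, Pop5, a protein of the RNase P and RNase MRP particles that cut tRNA and rRNA precursors, measured 71.6 and 70.6 TPM in the controls against 34.6 and 36.0 TPM in the knockouts. Both knockout libraries held close to the same level, at a ratio of means of 0.496 (log2 change -0.99, SE 0.12, limma adjusted p = 0.148), and the authors' deposited table gives -0.82 with an FDR of 0.0774. Nop53, a late 60S factor, measured 350 and 341 TPM in the controls against 257 and 274 TPM in the knockouts. In the authors' deposited table, 4 of the 122 passed an FDR of 0.05, all higher (Taf1d, Ppan, Ftsj3 and Pum3), or 3.28% against 1.51% of its genes. The authors' deposited table has a log2 change above 0 for 73 of the 122 (59.8%), against 46.9%.

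Ribosomal protein genes, whose products the pathway assembles, had a median log2 change of -0.04 over 78 tested genes, which became 0.01 to 0.02 after scaling by trimmed means of M values or median ratios and -0.07 after quantile normalization. The median of all tested genes moved from -0.06 to -0.014 with trimmed means, -0.008 with median ratios and -0.003 with quantiles. Setd2f/f replicate 2 was above replicate 1 for 62 of the 78 ribosomal protein genes, or 79.5%, but with a median gap of 0.08. Setd2D/D replicate 1 was the lowest library for 37 of the 78. Myc measured 306 and 361 TPM in the controls against 291 and 275 TPM in the knockouts. Both knockout libraries were below both controls (log2 change -0.23, SE 0.12, limma adjusted p = 0.525), and of the controls replicate 1 was the lower.

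**Figure D4:**
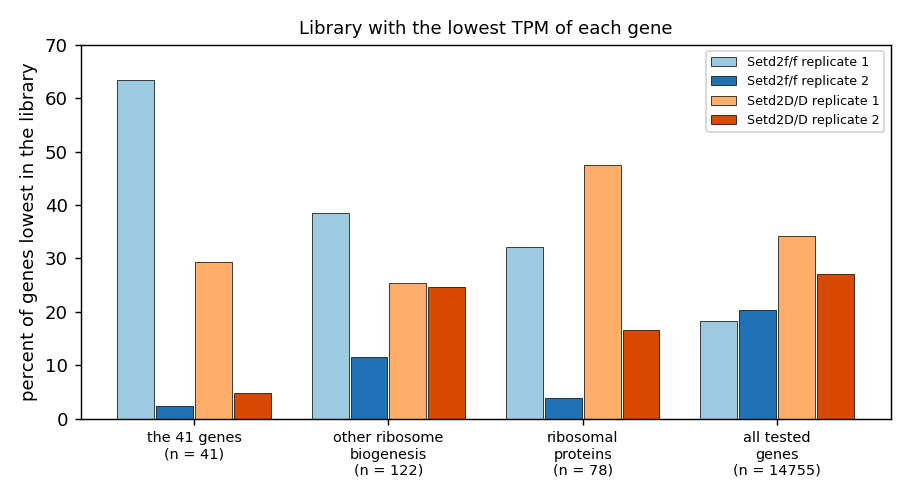
Percent of genes whose lowest TPM falls in each of the 4 libraries, for the 41 genes, the 122 further ribosome biogenesis genes, the 78 ribosomal protein genes and all 14755 tested genes. Setd2f/f replicate 1 is lowest for 63.4% of the 41, 38.5% of the further genes, 32.1% of the ribosomal protein genes and 18.4% of tested genes.

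Start sites were searched for the E-box CACGTG, the palindrome that MYC and MAX bind, in the window from 250 bases before to 50 bases after each start in RefSeq (GRCm38.p6). Of the 41 genes, 36 were matched, all but Npm1, Fbl, Bop1, Rrs1 and Rrp12. The E-box was found for 9 of the 36 (25%), against 8.09% of the 27025 genes of that table and 11.9% of the 9229 tested protein-coding genes matched to it. The 9 were Nop2, Tsr1, Mybbp1a, Pes1, Ltv1, Wdr43, Utp18, Utp20 and Grwd1. Their median log2 change was 0.22, with 6 above 0, and that of the 27 without the letters was 0.06, with 17 above 0. Of all tested genes 42.1% were above 0. Setd2D/D was above Setd2f/f in every pairing of libraries for 4 of the 9, against 16.8% of tested genes. Among the 27 this also held for Polr1c, Ncl, Ddx21, Dkc1, Wdr75, Bysl and Rrp1b. The sites are shown for the 4, chosen by this outcome, and, for contrast, for Utp18, whose log2 change was -0.05. The E-box is in capitals, with up to 12 bases on either side:
Nop2: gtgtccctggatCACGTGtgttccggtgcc
Tsr1: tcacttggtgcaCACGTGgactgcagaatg
Mybbp1a: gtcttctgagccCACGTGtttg
Pes1: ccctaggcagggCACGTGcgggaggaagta
Utp18: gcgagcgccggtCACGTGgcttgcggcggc
The stretches lie at chr6:125131811-125131840 (plus strand), chr11:74898092-74898121 (plus), chr11:72441355-72441376 (plus), chr11:3963965-3963994 (plus) and chr11:93885769-93885798 (minus). With the start site counted as 0, the E-box begins at position -60 in Nop2, 24 in Tsr1, 40 in Mybbp1a, 2 in Pes1 and -20 in Utp18, so that in 3 of the 5 it lies just inside the transcribed part. The same 6 letters thus stood at Nop2, with the largest positive change of the 41, and at Utp18, near 0. A match describes the sequence and does not show that a factor binds there.

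Several of the genes carry small nucleolar RNA genes within them, the guides of the particles named above. By GENCODE M21, 7 of the 41 (17.1%) hold 21 snoRNA genes on their own strand, against 1.87% of tested protein-coding genes. They are Ncl, Gnl3, Nop56, Nop58, Dkc1, Wdr43 and Tsr1. All 7 had a log2 change above 0 (median 0.29), against 18 of the 34 that hold none (median 0.03) and 42.1% of tested genes. Of the 7, Nop56 (0.02) and Nop58 (0.06) were near 0 and turned negative in fits with a library left out. The changes of other tested genes that hold snoRNA genes were not compared. Of the 21 snoRNA genes, 16 were listed at 0 in all 4 libraries. Snord19, inside Gnl3, was listed at 271 and 0 TPM in the controls against 26.9 and 177 TPM in the knockouts, with no order between the genotypes. At 76 bases it is too short for such values to be compared with those of its host.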

How the data were processed

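The authors deposited TPM values per gene and library. They also deposited a table of the genotype comparison with a fold ratio, log2 fold change, F score, p-value and FDR. The submitters' processing notes name cutadapt, RSEM, edgeR and the mm10 build without roles or versions. In 5 rows of the first table and 2 of the second, fields shifted by a comma in the gene name were joined again.

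The 14755 genes that reached a TPM of 1 in 2 or more libraries were fitted as log2(TPM + 1) with limma 3.58.1 in R 4.3.3, with 1 term for genotype, an abundance trend and Benjamini-Hochberg adjustment over all of them. The fit was also run on simulated data with independent noise. These held no shift common to many genes of a library, so that they do not cover such a case. Fold changes on this scale understate those of low genes. TPM keeps no read depth, so counting error could not be given. Positions are from GENCODE M21 (GRCm38, which is mm10).

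The 41 genes and the other lists were chosen with earlier results of these data known. Named with values in every library were the 2 most abundant genes per role, the 8 with the smallest p, the 3 most negative, the 4 further pathway genes with the smallest p, Setd2, Myc, Kit and Ly6a. Other genes were named after their values were seen. Exosc6 was not analysed here.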

Additional observations from a re-analysis of the deposited data

How the results depend on the processing

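None of the 41 genes passed an adjusted p of 0.05 in limma under any of the 14 alternatives run (pseudocount 0.1 or 0.5, all genes unfiltered, a minimum TPM of 5, 3 rescalings, moderation without the trend or robust, the replicate number as a block, and 1 library omitted at a time). Their count at an unadjusted p under 0.05, higher in Setd2D/D, was 2 (4.88%, against 4.17% of tested genes) and became 5 with median-of-ratios scaling (12.2% against 5.22%), 6 with quantile normalization (14.6% against 5.24%) and 0 with no abundance trend (4.60% of tested genes), and lay between 0 and 6 when a library was left out (1.76% to 7.90% of tested genes). For the further pathway genes this count was 3 and became 5 with scaling by trimmed means of M values or median ratios, 6 with quantile normalization (4.92%) and 1 with no abundance trend, and lay between 1 and 9 when a library was left out. The replicate numbers do not pair the libraries by the labels, and deviations of same-numbered libraries correlated at r = 0.04 across genes. With the replicate block the counts were 4 and 5, and 0 genes of all tested passed an adjusted p of 0.05, against 10 without the block.

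With a library left out, the lone library of its genotype is assumed to vary like the other pair. The median log2 change of the 41 genes then lay between -0.030 and 0.23, the ratio of their summed TPM between 1.05 and 1.22, and the number higher in Setd2D/D in every pairing between 12 and 27. Without Setd2f/f replicate 2 that number was 27, and without Setd2D/D replicate 1 it was 19. With 3 libraries fewer values have to be in order, and over all tested genes the share was then between 25.7% and 35.0% in place of 16.8%.

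The median of the further pathway genes was 0.046 with trimmed-mean scaling, 0.052 with median ratios and 0.062 with quantiles, and lay between -0.051 and 0.056 with a library left out. That of the ribosomal protein genes was 0.011 with trimmed means, 0.017 with median ratios and -0.072 with quantiles, and lay between -0.082 and 0.0070 with a library left out. The changes that took the opposite sign in 14 of 392 values belong to 7 genes, whose changes with all libraries lay between -0.24 and 0.06. With a library left out they lay between -0.18 and 0.29 for Polr1b, -0.13 and 0.17 for Nop56, -0.066 and 0.19 for Nop58, -0.59 and 0.12 for Gar1, -0.49 and 0.18 for Rrp9, -0.15 and 0.086 for Nob1 and -0.40 and 0.025 for Ebna1bp2. Nob1 was at 0.022 with trimmed means, 0.029 with median ratios and 0.0094 with quantiles. The causes were not tested. Depth is not known from TPM, so counting error limits these values by an amount that cannot be given here.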

Other observations

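The 41 genes were short on the chromosome, with a median span of 12.8 kb against 23.4 kb for the 12077 tested protein-coding genes. The letters CCGGAAG, a core that ETS factors bind, were found on either strand within 250 bases before to 50 after the start of 13 of the 36 matched genes (36.1%), against 20.4% of tested protein-coding genes, and did not overlap an E-box.

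For 8 of the 41 genes the sign of the change differed between limma on TPM and the authors' deposited table (Utp18, Wdr75, Nop14, Ddx10, Rrp9, Nob1, Grwd1 and Wdr74), and for 4 (Polr1c, Wdr75, Rrp9 and Wdr12) the log2 changes lay more than 0.2 apart. The median absolute gap over the 41 was 0.05.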
